A study of Mus musculus with 4 samples.

Results

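The T-cell receptor complex and its coreceptors were followed through 10 genes, taken as the rows of the deposited count table whose symbol is Cd3d, Cd3e, Cd3g, Cd247, Trac, Trbc1, Trbc2, Cd4, Cd8a or Cd8b1. All 10 were found among the 56748 genes of the table, and all 10 passed the filter on low counts that left 15167 genes for testing. The samples were lungs of female BALB/cJ mice, 7 weeks old when 4T1-FLuc cells, a mouse triple-negative breast cancer (TNBC) line carrying firefly luciferase, were injected through the tail vein. Control mice received saline (T25 and T26, called PBS control in the sample labels) and treated mice received cmLumiOpto/PARPi (T29 and T30), with 2 libraries per group collected after 3 weeks. cmLumiOpto is a gene therapy in an exosome-associated adeno-associated virus coated with an anti-CD276 antibody, given with the luciferase substrate ViviRen, and PARPi is the PARP inhibitor olaparib at 50 mg/kg. No group given the virus alone or olaparib alone was among these samples, so the parts of the combination cannot be told apart. The mice are immunocompetent and all carry the same tumor line. The labels describe the material as tumour cells harvested from the lung and the study's methods as lung tissue with metastasis. Lung genes were abundant in it, with Sftpc, the surfactant protein C gene of alveolar type 2 cells, at 1020 and 176 CPM (read counts scaled to the size of each library) in the saline libraries and 6153 and 2092 CPM after cmLumiOpto/PARPi.

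The αβ T-cell receptor is a pair of chains that recognizes peptides held by MHC molecules and cannot signal by itself. It is assembled with the CD3γ, CD3δ and CD3ε chains and a dimer of the ζ chain, whose cytoplasmic tails carry the tyrosine motifs that the kinase Lck phosphorylates and Zap70 binds. CD4 binds MHC class II on helper and regulatory T cells, and CD8, an αβ heterodimer on most cytotoxic T cells, binds MHC class I. Infiltrating T cells are the usual source of these transcripts in tumor-bearing lung. CD8α is also made by a subset of dendritic cells, and ζ chain by natural killer (NK) cells. In bulk RNA, fewer T cells and less of the RNA per T cell cannot be told apart.

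The 10 genes were higher after cmLumiOpto/PARPi in the fitted means, but none was distinguished from saline beyond the spread between libraries. Saline replicate 1 exceeded saline replicate 2 by a median of 3.14-fold over the 10 genes, and treated replicate 1 exceeded treated replicate 2 by 3.16-fold, so libraries of a group differed by more than the groups did. Summed over the 10 genes, 922 and 307 reads were counted in the saline libraries and 2188 and 621 after cmLumiOpto/PARPi, which gave 57.8 and 20.9 CPM against 126 and 37.4 CPM. Replicate 1 of the treated group was thus the highest library and replicate 2 of the saline group the lowest, while treated replicate 2 lay below saline replicate 1. Of the 10 genes, 9 had treated replicate 1 highest and saline replicate 2 lowest, against 17.7% of all genes tested, and 6 followed the whole order of treated replicate 1, saline replicate 1, treated replicate 2 and saline replicate 2, against 6.79%. By the quasi-likelihood test of edgeR, no adjusted p was under 0.05 among the 10 genes or among all 15167 genes tested (0% called), of which 3221 had an unadjusted p under 0.05 (1397 higher and 1824 lower, or 1762 and 1482 when scaled by library totals alone). The adjusted p-values of the 10 ran from 0.217 to 0.755. At an unadjusted p under 0.05 there was 1 of the 10 genes, Trbc1, against 21.2% of all genes tested and 9.21% that were higher. DESeq2, run without the filter on low counts, called 0 of the 10, against 1.19% of its 25435 genes called higher. A fit with the replicate number as a block called 4 of the 10 (Trbc1, Cd3d, Trbc2 and Cd3g), against 4.96% of all genes called higher, but the numbers are not stated to pair the mice. With no filter on low counts edgeR called 5 of the 10, against 3.67% of the 25435 genes in that fit called higher. The median log2 fold change of the 10 was 1.00, against 0.022 over all genes tested, and all 10 were above 0, against 52% of all genes tested. This median rested on treated replicate 1. Without that library it was -0.086, and 4 of the 10 genes were still higher after treatment. Without saline replicate 1 the median was 2.20, and without saline replicate 2 it was 0.39. In 7 of the 10 genes the treated libraries differed by more than the group means did on the log2 CPM scale, against 43% of all genes tested.

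**Figure D1:**
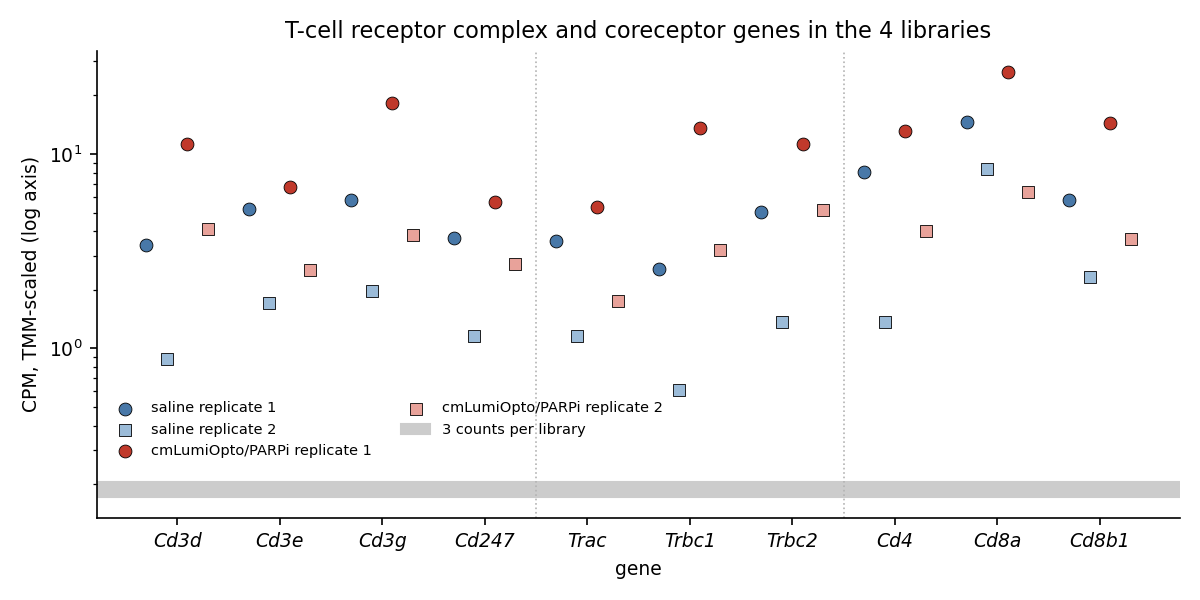
CPM of each gene (log axis) in the 4 libraries, blue for saline and red for cmLumiOpto/PARPi, circles for replicate 1 and squares for replicate 2. The grey band marks 3 counts in a library, and the dotted lines part the CD3 and ζ chains, the receptor constant genes and the coreceptors. Treated replicate 1 was the highest library for every gene, while treated replicate 2 lay above both saline libraries for Cd3d, Trbc1 and Trbc2.

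Among the signaling chains, Cd3g, which encodes CD3γ, had 5.83 and 1.98 CPM in the saline libraries and 18.2 and 3.85 CPM after cmLumiOpto/PARPi. Cd3d, which encodes CD3δ, had 3.39 and 0.886 CPM against 11.2 and 4.09 CPM. Both treated libraries of Cd3d lay above both saline libraries, which held for 3 of the 10 genes and for 27.4% of all genes tested, and for Cd3g the groups overlapped. The log2 fold change was 1.83 for Cd3d (standard error 0.76, 95% interval -0.033 to 3.70, edgeR adjusted p = 0.241) and 1.50 for Cd3g (standard error 0.83, 95% interval -0.55 to 3.54, adjusted p = 0.344). For Cd3e, whose CD3ε chain pairs with both CD3γ and CD3δ, the values were 5.21 and 1.70 CPM against 6.74 and 2.53 CPM. The groups overlapped, treated replicate 2 having 0.486 times the CPM of saline replicate 1. The log2 fold change of Cd3e was 0.42 (95% interval -1.29 to 2.13, adjusted p = 0.755). Cd247, the ζ chain gene (ENSMUSG00000005763, chromosome 1 from 165788681 to 165877277), had 3.70 and 1.16 CPM in saline and 5.64 and 2.71 CPM after treatment, a log2 fold change of 0.78 (95% interval -0.87 to 2.42, adjusted p = 0.531). The intervals of these 4 genes all include both no change and a 4-fold rise, so the chains cannot be ranked by their response. Without treated replicate 1 the log2 fold change of Cd3g was -0.027 and that of Cd3e was -0.46, and without saline replicate 2 that of Cd3e was -0.18.

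The CD3 genes are neighbors on chromosome 9. In GENCODE M21 on GRCm38, Cd3g (ENSMUSG00000002033) lies from 44969572 to 44980431 on the minus strand, Cd3d (ENSMUSG00000032094) from 44981786 to 44987339 on the plus strand and Cd3e (ENSMUSG00000032093) from 44998740 to 45009627 on the minus strand. Cd3g and Cd3d thus start 1355 bases apart and are read away from each other. Their promoters are shown because the libraries ranked in nearly the same order for all 3 genes, and each runs from 250 bases before to 50 bases after the RefSeq start in GRCm38.p6, read 5′ to 3′ on the gene's strand. Capitals mark matches on either strand to short core motifs of T-cell transcription factor families, with AGGAAG for the ETS family, AGATAA for the GATA factors and CTTTGA for the TCF/LEF factors.
Cd3g, chr9:44980382-44980681, minus strand: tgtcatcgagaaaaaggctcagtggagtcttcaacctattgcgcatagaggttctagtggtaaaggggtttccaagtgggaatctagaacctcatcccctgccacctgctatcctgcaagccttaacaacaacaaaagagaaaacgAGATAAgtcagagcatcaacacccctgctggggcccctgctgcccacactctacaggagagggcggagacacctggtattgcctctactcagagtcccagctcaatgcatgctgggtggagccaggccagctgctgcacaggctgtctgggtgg
Cd3d, chr9:44981536-44981835, plus strand: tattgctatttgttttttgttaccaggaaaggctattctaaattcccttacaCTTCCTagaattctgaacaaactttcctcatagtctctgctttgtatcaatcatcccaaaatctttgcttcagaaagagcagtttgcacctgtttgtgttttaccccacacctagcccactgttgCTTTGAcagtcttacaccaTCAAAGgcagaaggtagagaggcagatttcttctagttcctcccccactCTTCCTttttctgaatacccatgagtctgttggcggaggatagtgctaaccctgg
Cd3e, chr9:45009562-45009861, minus strand: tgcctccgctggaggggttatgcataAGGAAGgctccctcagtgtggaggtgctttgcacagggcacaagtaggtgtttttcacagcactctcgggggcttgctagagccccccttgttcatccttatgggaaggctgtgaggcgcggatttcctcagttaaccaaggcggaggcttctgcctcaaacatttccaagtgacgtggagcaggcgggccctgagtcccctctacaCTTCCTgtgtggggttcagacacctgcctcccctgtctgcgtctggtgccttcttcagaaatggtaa
The Cd3g window held 1 match, to AGATAA, the Cd3d window 4, to AGGAAG and CTTTGA, and the Cd3e window 2, both to AGGAAG. RefSeq promoters were found for 5 of the 10 genes, also Cd247 and Cd8a. AGGAAG was in 3 of these 5 and in 35.4% of all 32851 promoters, CTTTGA in 2 and 16%, and AGATAA in 1 and 11.2%. The RUNX core TGTGGT, searched in the same way, was in 0 of the 5 and in 16.8% of all promoters, and the TATA-box core TATAAA in 0 and 13.6%. The matches in the windows shown do not overlap.

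Of the constant genes of the receptor chains, Trbc1 had the largest fitted difference of the 10 genes. Both β-chain constant genes had non-overlapping groups. With Cd3d these were 3 of the 10 genes, close to the 27.4% of all genes tested with both treated libraries above both saline libraries. Trbc1 had 2.57 and 0.613 CPM in the saline libraries and 13.6 and 3.19 CPM after cmLumiOpto/PARPi. Trbc2 had 5.02 and 1.36 CPM against 11.3 and 5.17 CPM. Treated replicate 2 exceeded saline replicate 1 by a factor of 1.24 for Trbc1 and 1.03 for Trbc2, so the groups were apart by a small margin. Trbc1 had a log2 fold change of 2.38 (standard error 0.90, 95% interval 0.16 to 4.61, unadjusted p = 0.040, edgeR adjusted p = 0.217), and Trbc2 one of 1.36 (standard error 0.68, 95% interval -0.33 to 3.05, adjusted p = 0.308). With the β constant genes summed into 1 row the log2 fold change was 1.79. The α-chain constant gene Trac (ENSMUSG00000076928), on chromosome 14 from 54220521 to 54224206, had 3.57 and 1.16 CPM in saline and 5.35 and 1.74 CPM after treatment. Its log2 fold change was 0.58 (95% interval -1.27 to 2.43, adjusted p = 0.685) with overlapping groups, and it was -0.45 without treated replicate 1 and -0.026 without saline replicate 2. A difference between the α and β genes was not tested, and their intervals overlap.

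Trbc1 (ENSMUSG00000076490, chromosome 6 from 41538218 to 41539881) and Trbc2 (ENSMUSG00000076498, chromosome 6 from 41546730 to 41548352) are tandem copies, and a T cell uses 1 of them for a given rearranged β chain. Their coding sequences, both 518 bases in GENCODE M21, differ at 23 positions (95.6% identity), and the first 259 bases are identical. Bases 251 to 518 of both are shown, since within the coding sequence this stretch alone can tell reads of the copies apart, with the differing bases in capitals.
Trbc1: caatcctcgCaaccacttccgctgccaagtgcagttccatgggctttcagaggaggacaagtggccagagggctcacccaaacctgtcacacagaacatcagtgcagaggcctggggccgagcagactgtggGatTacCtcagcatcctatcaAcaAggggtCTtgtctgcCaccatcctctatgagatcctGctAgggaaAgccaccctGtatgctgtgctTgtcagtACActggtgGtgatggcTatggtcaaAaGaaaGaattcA
Trbc2: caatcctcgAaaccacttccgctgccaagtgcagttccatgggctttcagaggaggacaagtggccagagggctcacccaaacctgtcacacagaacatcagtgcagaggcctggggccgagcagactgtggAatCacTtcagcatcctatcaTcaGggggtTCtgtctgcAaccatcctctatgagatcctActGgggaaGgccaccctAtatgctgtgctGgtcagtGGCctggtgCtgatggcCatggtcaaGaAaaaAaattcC
After the first difference at base 260 another 122 bases are identical. How reads that fit both copies were counted is not given in the sources used here, so the split between the copies is uncertain. As counted, Trbc1 took 33.9% of the 121 reads on both genes in saline replicate 1 (95% Wilson interval 26.1 to 42.7%), 31.0% of 29 in saline replicate 2 (17.3 to 49.2%), 54.6% of 432 in treated replicate 1 (49.9 to 59.3%) and 38.1% of 139 in treated replicate 2 (30.5 to 46.4%). The share in treated replicate 1 lay above the intervals of the other 3 libraries, and the share in treated replicate 2 lay inside both saline intervals. These intervals cover counting error only.

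**Figure D2:**
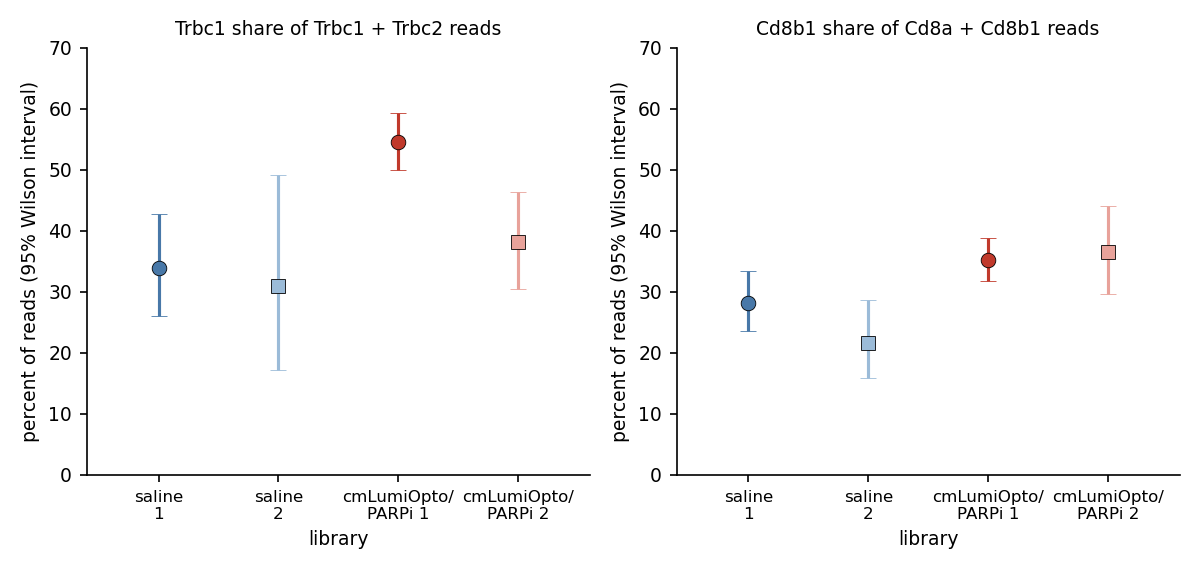
Share of reads on Trbc1 among those on Trbc1 and Trbc2 (left) and on Cd8b1 among those on Cd8a and Cd8b1 (right), in percent, with 95% Wilson intervals for counting error, 1 point per library. On the left treated replicate 1 stands apart at 54.6%. On the right both treated libraries, at 35.3% and 36.5%, lie above the saline libraries at 28.2% and 21.7%.

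Reads on the variable, diversity and joining segments of the same receptors were few. Over 241 rows of Trav, Traj, Trbv, Trbd and Trbj segments there were 67 and 11 reads in the saline libraries and 147 and 37 after cmLumiOpto/PARPi, the order of libraries that the summed constant genes also had (11.2 and 3.13 against 30.2 and 10.1 CPM), although Trbc1 and Trbc2 singly did not, and 0 of these rows had enough counts for the test. Reads fell on 20 and 9 rows in saline and on 30 and 17 rows after treatment. The 3 rows with the most reads were each almost confined to 1 library or group. Trbv29 had 29 of its 30 reads in treated replicate 1 and 1 in saline replicate 1. Trav7-4 had all 25 of its reads in treated replicate 1. Trbv30 had 22 and 3 reads in the saline libraries and 0 in both treated libraries, where 3 counts would correspond to 0.173 and 0.181 CPM. Segments of a family are similar in sequence, so the row a read was given to is uncertain.

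Of the coreceptors, Cd4 had 8.09 and 1.36 CPM in saline and 13.1 and 4.03 CPM after cmLumiOpto/PARPi. Cd8a had 14.7 and 8.38 CPM against 26.4 and 6.38 CPM, and Cd8b1, the CD8β gene, 5.77 and 2.32 CPM against 14.4 and 3.67 CPM. The groups overlapped for all 3 genes, and Cd8a was the 1 gene of the 10 whose lowest library was a treated one. The log2 fold changes were 0.85 for Cd4 (standard error 0.89, adjusted p = 0.611), 0.51 for Cd8a (standard error 0.66, adjusted p = 0.686) and 1.16 for Cd8b1 (standard error 0.74, adjusted p = 0.403), by edgeR. Without treated replicate 1 all 3 were fitted lower after treatment, at -0.24, -0.86 and -0.15. Cd8b1 (ENSMUSG00000053044, from 71322788 to 71337494) and Cd8a (ENSMUSG00000053977, from 71373427 to 71379173) lie 35932 bases apart on chromosome 6, which also carries Cd4 (ENSMUSG00000023274, from 124864692 to 124888221). Cd8b1 made up 28.2% and 21.7% of the reads on the CD8 genes in saline (95% Wilson intervals 23.6 to 33.3% and 15.9 to 28.7%) and 35.3% and 36.5% after treatment (31.8 to 38.8% and 29.6 to 44.1%). Both treated shares were above both saline shares, but the interval of saline replicate 1 overlaps both treated intervals. Scaled to gene length, Cd4 had 0.516 and 0.216 times the level of Cd8b1 in saline and 0.334 and 0.404 times after treatment, so the treated values lay between the saline values. An exact permutation of 2 libraries against 2 cannot give a two-sided p below 0.333, and no test was run on these shares and ratios.

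**Figure D3:**
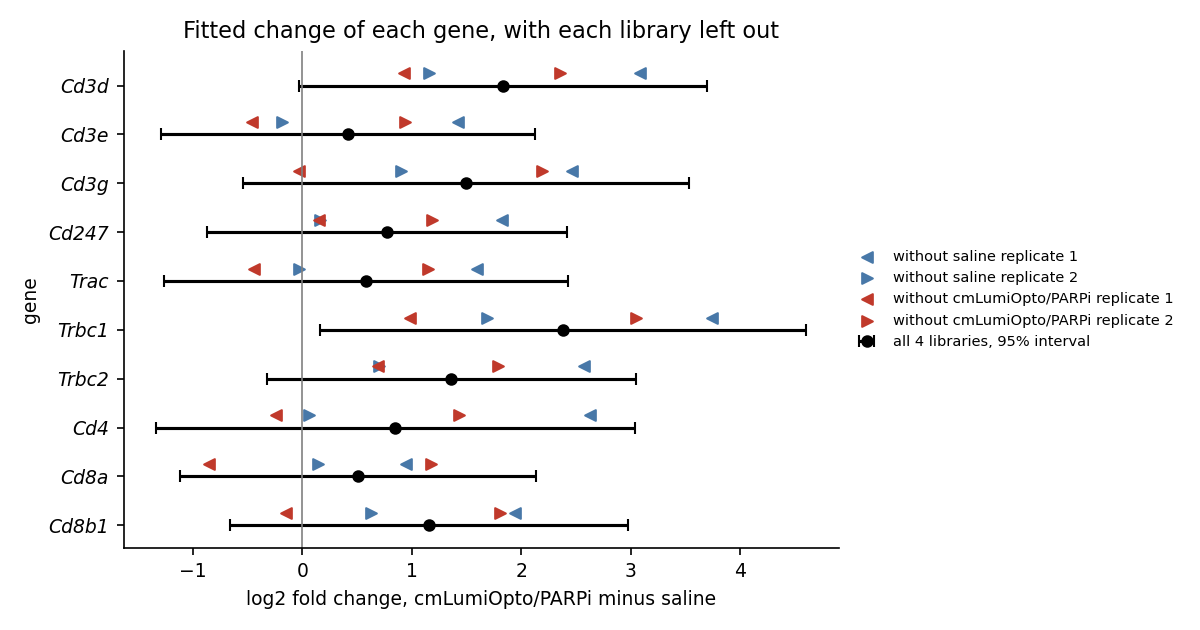
Log2 fold change of each gene, cmLumiOpto/PARPi minus saline, with its 95% interval from edgeR's quasi-likelihood fit (black), and the value with 1 library left out (triangles, blue for a saline and red for a treated library). The interval of Trbc1, from 0.16 to 4.61, is the one that does not include 0, and without treated replicate 1 the values run from -0.86 for Cd8a to 0.99 for Trbc1.

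Per kilobase of gene length, as the table gives it, mean levels over the 4 libraries ran from 0.62 CPM per kilobase for Cd247 through 0.99 for Cd3e, 1.65 for Cd4, 2.29 for Cd3g, 2.70 for Cd3d, 3.16 for Trac, 3.84 for Cd8a, 4.41 for Cd8b1 and 6.66 for Trbc1 to 8.25 for Trbc2. The 4-library ranges of all neighbors in this order overlap, and the means lean on treated replicate 1. Ranked within each library, Cd247 was the lowest of the 10 in all 4 libraries, Cd8b1 was at rank 3 in all 4, and Trbc2 was at rank 1 or 2. Trbc1 was at rank 5 in both saline libraries and at ranks 1 and 2 in the treated libraries, and Cd8a was at ranks 2 and 1 in saline and at ranks 4 and 6 after treatment. The length counts all annotated exons of a gene, so these levels depend on the annotation.

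The rest of the T-cell program was read from lists of genes with known roles. Of 25 tested genes of proximal receptor signaling, which relay the signal from the CD3 tails, 0 passed an adjusted p of 0.05, 19 were fitted higher and 6 lower, and the median log2 fold change was 0.36. At an unadjusted p under 0.05 there were 0 higher and 3 lower in this list, the latter being close to the 12% of all genes tested that were lower at that p. Lck, the kinase carried by CD4 and CD8, had 10.8 and 4.77 CPM in saline and 21.7 and 7.58 CPM after treatment. The Tec kinase Txk was among the higher genes of the list (log2 fold change 1.57, adjusted p = 0.240). Plcg1, a phospholipase used by many receptors, was lower in both treated libraries, with 101 and 103 CPM against 65.4 and 75.9 CPM (log2 fold change -0.53, adjusted p = 0.145), as was the adaptor Pag1 (-0.64, adjusted p = 0.162). Genes of these lists, whether fitted higher or lower, can also be made by cells other than T cells, and the source of the transcripts was not tested. Of 28 tested surface and co-stimulatory genes 0 passed, 25 were fitted higher and 3 lower, with a median of 0.76 and 2 higher at an unadjusted p under 0.05, by the same test. These were Tnfrsf18, which encodes GITR (log2 fold change 1.63, adjusted p = 0.188), and the IL-7 receptor gene Il7r (1.33, adjusted p = 0.235). The lower genes with the smallest p were Cxcr3 and Tigit, at -0.59 (adjusted p = 0.450) and -0.12 (adjusted p = 0.838). Of 20 T-cell transcription factor genes 0 passed, 13 were fitted higher and 7 lower, with a median of 0.079, 1 higher and 1 lower at an unadjusted p under 0.05. Id3 was at 1.17 (adjusted p = 0.150) and Ets1 at -0.36 (adjusted p = 0.201), while Tbx21, which encodes the T-bet factor of type 1 T cells, was at 1.47 (adjusted p = 0.384) and Runx3 at -0.28 (adjusted p = 0.468). Of the constant genes of the γδ receptor, Trgc2 had 2.38 and 1.29 CPM in saline and 4.43 and 2.53 CPM after treatment (log2 fold change 0.91, adjusted p = 0.356), and Trgc1 had a fold change of 0.20 on the log2 scale (adjusted p = 0.870). Trdc, the δ-chain constant gene, was below the filter with 8 and 7 counts against 14 and 5.

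The 6 genes whose centered log2 CPM lay nearest to the mean profile of the 10 over the 4 libraries were Tnfrsf25, Foxp3, Cd7, Tspan7, Qpct and Grk3, with Euclidean distances of 0.083 to 0.21, the 10 genes themselves being 0.35 to 1.20 from that mean. Foxp3, the factor that defines regulatory T cells, had 1.07 and 0.273 CPM in saline and 2.71 and 0.782 CPM after treatment. Tnfrsf25 (death receptor 3) and Cd7 are also T-cell surface genes. Of the 6, Foxp3 and Cd7 alone were in the T-cell lists used here. Tspan7, which was not, had the highest level of the 6, at 37.3 and 13.3 CPM against 93.4 and 25.6 CPM. With 4 libraries many genes share a profile, and nothing was tested here.

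Markers of several other cell types were also highest in treated replicate 1. All 9 tested B-cell markers, 8 of 9 NK-cell markers and 9 of 10 dendritic-cell markers were fitted higher after treatment, 0 past an adjusted p of 0.05. Treated replicate 1 was highest and saline replicate 2 lowest for 9 of 10 dendritic-cell markers, and 6 followed the whole order. The receptor and coreceptor genes had the same counts. The median log2 fold change of the dendritic-cell markers was 1.44. The same extremes held for 7 of 9 B-cell, 7 of 8 alveolar type 2, 6 of 8 airway and 6 of 8 endothelial markers. They held for 4 of 10 monocyte and macrophage, 3 of 9 NK-cell, 2 of 7 epithelial tumor and 1 of 10 neutrophil markers. Of all genes tested 17.7% had these extremes. Summed levels were 55.8 and 9.34 CPM against 66.0 and 38.4 CPM for B cells, 34.9 and 23.6 against 76.8 and 19.2 CPM for NK cells, and 250 and 182 against 566 and 216 CPM for dendritic cells. The B-cell sum leaned on Ighm, and without it was 14.4 and 6.47 against 23.6 and 14.9 CPM, higher in both treated libraries. Most of the dendritic-cell sum was Bst2, and without it the sum was 34.1 and 20.0 against 64.6 and 28.7 CPM. Saline replicate 2 was the lowest library for the B-cell and dendritic-cell sums, as for the 10 genes, and for the NK-cell sum once the perforin gene Prf1 was left out (23.1 and 11.4 against 64.0 and 16.7 CPM). Of the NK-cell markers, Klrb1c had 2 and 0 counts against 17 and 2, and Ncr1 had 17 and 1 against 56 and 13. Klra4 and Klra8, also on that list, were at 0 in all 4 libraries. Whether this mouse strain expresses them was not tested, so their zeros give no level of NK cells. Of the B-cell markers, Ms4a1 was at 0 counts in saline replicate 2. Cd8a is shared with dendritic cells, whose Clec9a had 2.70 and 0.409 CPM against 10.3 and 2.05 CPM. The sums for lung epithelium were higher in both treated libraries than in both saline libraries, with 1719 and 464 against 8328 and 2973 CPM for the 8 alveolar type 2 genes and of 1162 and 87.6 against 5751 and 3213 CPM for the 8 airway genes. Endothelial markers summed to 551 and 399 against 948 and 451 CPM and neutrophil markers to 1276 and 520 against 781 and 1571 CPM. Monocyte and macrophage markers summed to 2500 and 1948 against 4312 and 3108 CPM, but this rested on Lyz2, a lysozyme gene that alveolar type 2 cells also express. Without Lyz2 the other markers of the list summed to 807 and 807 CPM in saline and 693 and 667 CPM after treatment, lower in both treated libraries. That lower remainder leaned on Mrc1, at 212 and 396 CPM against 137 and 154 CPM. Of the 10 tested markers of the list 7 were fitted higher and 3 lower, so the sums give no common direction. Epithelial tumor markers summed to 3011 and 3390 against 2692 and 3850 CPM, lowest in treated replicate 1. The sum leaned on abundant keratin genes such as Krt8, at 1144 and 1560 against 998 and 1640 CPM. Epcam, also on that list, was highest in treated replicate 1, at 176 and 149 against 181 and 161 CPM. Of the 7 tested genes of the list 5 were fitted higher and 2 lower. The part of these cell types in the levels of the 10 genes was not tested.

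**Figure D4:**
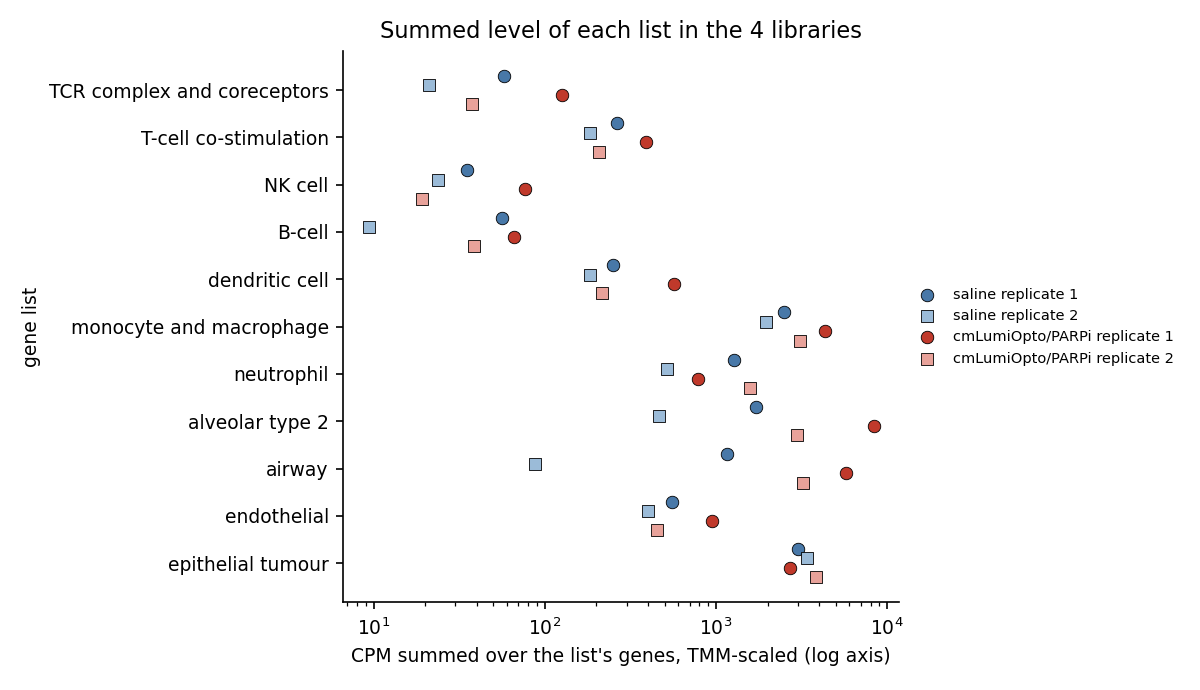
CPM summed over the genes of each list (log axis) in the 4 libraries, for the 10 receptor and coreceptor genes, for T-cell surface and co-stimulatory genes and for markers of other cells, with colors and symbols by group and replicate. Treated replicate 1 is highest for every list but the neutrophil and epithelial tumor lists. The groups are apart for the alveolar type 2 and airway lists, and for the monocyte and macrophage list. In the latter the treated sums are the lower ones without Lyz2, which leaned on Mrc1, although 7 of its 10 genes were fitted higher.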

How the data were processed

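RNA of lungs carrying 4T1 metastases was sequenced in 4 libraries, 2 per group. The authors mapped the reads with HISAT2 and deposited raw read counts per gene, not normalized. The study's methods name GRCm38 and the submitters' processing notes name mm39, along with HISAT2, HISAT and TopHat2. The counting tool and strand setting are not given in the sources used here. The table's positions matched GENCODE M21 (GRCm38) for 0 of the 10 genes, so coordinates are those of GENCODE M21, found by Ensembl identifier.

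Counts were tested with edgeR 4.0.16 in R 4.3.3 (filterByExpr at its minimum count of 10, TMM factors, default settings of glmQLFit and glmQLFTest, Benjamini-Hochberg adjustment over all genes tested, threshold 0.05). The standard error is the log2 fold change divided by the square root of F. CPM used TMM-scaled library sizes, and log2 CPM a prior count of 2. Totals were 15263375 to 16755228 counts per library, so 3 counts, taken as the detection floor, were 0.173 to 0.204 CPM. Between libraries of a group, chi-square divided by its degrees of freedom was 24.1 and 41.1, so each counted as 1 replicate. Whether a library is 1 mouse is not stated, so p-values measure the spread between these samples.

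The 10 genes and all lists were chosen with earlier results of these data known. Named were the 10 genes, from each other list up to 2 genes per direction with the smallest p (those of the cell markers are given as sums and counts), the 6 genes most like the 10 and the 3 receptor segments with the most reads. Not every gene this rule selects is reported here. Sftpc, Lck, Trdc, Klrb1c, Ncr1, Klra4, Klra8, Clec9a, Bst2, Ighm, Epcam and Ptprc were named outside this rule, with their values seen. Sequences came from RefSeq (GRCm38.p6) and GENCODE M21. Alternatives were DESeq2 1.42.0, other normalizations, no filter, another option of glmQLFit, the replicate block, a length correction, Trbc1 and Trbc2 summed, another prior count, and leaving out each library. List sums without each gene in turn and ranks within each library were added after seeing the data.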

Additional observations from a re-analysis of the deposited data

How the results depend on the processing

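Without the filter on low counts 2000 genes and 5 of the 10 receptor and coreceptor genes passed an adjusted p of 0.05 (Trbc1, Cd3d, Cd3g, Trbc2 and Cd8b1). In that fit 3.67% of its 25435 genes were called higher. DESeq2 called 929 genes and 0 of the 10, the smallest adjusted p being 0.051 for Trbc1. Under the replicate block 1822 genes and 4 of the 10 passed (Trbc1 0.012, Cd3d 0.020, Trbc2 0.034 and Cd3g 0.035), 4.96% of all genes being called higher. Among the list genes named, Gzma (0.025), Nkg7 (0.034), Id3 (0.0075), Il7r (0.049), Sftpc (0.0027), Clec9a (0.023), Ptprc (0.041) and Lyz2 (0.013), all higher, also passed under it. Plcg1 (0.039) and Mrc1 (0.022), both lower, passed as well. By list it called higher 5 of 28 co-stimulatory, 2 of 9 NK-cell, 2 of 10 dendritic-cell and 0 of 9 B-cell genes. Larger shares were called higher among lung markers, with 7 of 8 alveolar type 2, 8 of 8 airway and 5 of 8 endothelial genes. It called 0 genes of these 7 lists lower. Of the 10 monocyte and macrophage markers it called 2 higher and 2 lower. Of the 25 genes of proximal receptor signaling it called 2 higher and 1 lower. The numbers are not stated to pair mice, although same-numbered libraries deviated together across genes (Spearman's rho = 0.298, genes not being independent replicates). Over the fits without 1 library, which assume that a lone library varies like the other group, the count of genes past the threshold was 0 to 31, that of the 10 was 0 in each, and the median log2 fold change of the 10 was -0.086 to 2.20. The log2 fold change ranged from -0.46 to 1.42 for Cd3e, -0.45 to 1.59 for Trac, -0.86 to 1.17 for Cd8a, -0.027 to 2.46 for Cd3g, -0.15 to 1.94 for Cd8b1 and -0.24 to 2.63 for Cd4. The other genes kept a positive sign in these fits, and all 10 did under the other normalizations, the other option of glmQLFit and DESeq2. After a loess correction for gene length and mean log2 CPM the median was 0.70. The cause of these shifts was not tested.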

Other observations

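Relative to Ptprc, the gene of the pan-leukocyte antigen CD45, the CPM summed over the 10 receptor and coreceptor genes was 82.5% and 43.2% in the saline libraries and 108% and 58.3% after cmLumiOpto/PARPi, so the order of the libraries was the same per unit of Ptprc. Ptprc itself was at 70.1 and 48.4 CPM in saline and 116 and 64.1 CPM after treatment.

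Cytotoxic effector genes of the NK list, which cytotoxic T cells also make, had fitted values in both directions. None of those named here passed the threshold in the filtered edgeR fit without the replicate block. Gzma, which encodes granzyme A, had 1.13 and 0.750 CPM in saline and 11.1 and 2.23 CPM after cmLumiOpto/PARPi (log2 fold change 2.81, edgeR adjusted p = 0.166). Nkg7 had 7.78 and 2.45 CPM against 20.3 and 4.81 CPM (log2 fold change 1.29, adjusted p = 0.391). Prf1, the perforin gene, had 11.9 and 12.3 CPM against 12.8 and 2.53 CPM (log2 fold change -0.65, adjusted p = 0.612), its lowest library being treated replicate 2.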
